A study of Mus musculus with 1536 samples.

Results

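The genes described here are 9 forkhead transcription factors, *Foxp1*, *Foxp2*, *Foxp4*, *Foxc1*, *Foxc2*, *Foxo1*, *Foxo3*, *Foxn3* and *Foxf1*, in lymphatic endothelial cells (LECs) of the adult mouse nasopharynx. They were taken by symbol from the deposited expression matrix, as 9 of the 23168 genes listed, and 8 of the 9 had reads. The matrix lists 22 forkhead symbols in all, of which 19 had reads.

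Forkhead proteins bind DNA through a shared winged-helix domain and are grouped into lettered classes by the similarity of that domain. FOXC2 is known for its part in the formation and upkeep of lymphatic valves and of collecting vessels, where it acts downstream of oscillating flow, and FOXC1 is its close relative. FOXO factors are held out of the nucleus by growth factor signalling through PI3K and AKT, whereas the FOXP class consists mainly of repressors that bind DNA as dimers.

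Nasopharyngeal mucosa of 30 c57bl/6 mice of both sexes, aged 10–12 weeks, was pooled, and CD31+ PDPN+ cells were sorted into wells of 96-well plates. Smart-Seq3, which reads transcripts over their full length in cells held in plates, was used for the libraries. The matrix holds cells from 54.8% of the wells listed, and aged mice were not analysed here. Since no label ties a well to a mouse or a plate, all adult cells were treated as 1 pooled sample, and no p-value could be given.

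Total reads per cell lay between 7433 and 3524358, the median being 350746, and 2001 to 7236 genes were found in a cell. Shares of cells with a gene were therefore compared after every cell had been thinned at random to 20000 reads, which kept 93.9% of the cells and left out 51. The LEC label held for the sorted cells: *Prox1* was found in 97.7% of cells, *Pdpn* in 95.2% and *Flt4* in 99.8%. At least 3 of 5 immune markers were found in 2 cells, at least 3 of 5 fibroblast markers in 1 cell, and no cell held 3 mural or Schwann markers. *Ptprc*, 1 of the 5 immune markers, was listed at 0 in every cell, a value not read as absence for the reason given below. Of 5 genes often used for blood endothelium, *Plvap* (77.8% of cells) and *Emcn* (94.2%) were common, while *Flt1* (2.49%) and *Ackr1* (0.713%) were rare. At least 3 of these 5 genes were found in 54 cells (6.41%), and their share was 7.20% among cells with *Foxp2*, 8.81% among cells with *Foxc1* and 6.53% among cells with *Foxc2*.

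Every value below describes these cells only. A level is the mean number of reads per 10000 reads of a cell, or, where stated, the deposited natural log of 1 plus that number, and the standard deviation (SD) is over cells. Intervals are exact Clopper–Pearson 95% intervals and cover counting error only.

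The forkhead genes fell into widely found, intermediate and sparse groups. *Foxp1*, a repressor with roles in endothelial and immune cells, was found in the most cells, with 66.8% at 20000 reads (63.3–70.03%) and 83.5% with all reads. Its natural log level was 0.700 ± 0.579 (SD over all cells), the median cell being at 0.665 and the highest at 2.68. *Foxn3*, a repressor linked to cell cycle checkpoints, followed with 57.8% (54.2–61.2%), and its level was 0.574 ± 0.544. The interval of *Foxn3* lay wholly below that of *Foxp1*.

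*Foxo1*, the FOXO factor best known in endothelium for restraining growth and metabolism, was found in 46.4% of thinned cells (42.9–49.9%), and *Foxp2* in 45.8% (42.3–49.3%). These neighbours in the order did not differ beyond their intervals. The natural log level of *Foxp2* was 0.453 ± 0.569, the median cell being at 0.163 and the highest at 3.07. *Foxo3*, a second FOXO factor, was found in 24.8% (21.8–27.9%) with a level of 0.205 ± 0.364.

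The remaining genes were sparse. *Foxc1* was found in 16.7% of thinned cells (14.2–19.5%), *Foxc2* in 13.3% (11–15.8%) and *Foxp4*, the third FOXP gene with reads among the 9, in 8.22% (6.40–10.4%). The intervals of *Foxc1* and *Foxc2* overlapped, and that of *Foxp4* lay below both. With all reads, *Foxc1* was found in 27%, *Foxc2* in 23.6% and *Foxp4* in 18.5%, so a cell without a read of these genes may still have expressed them. The share with *Foxp4* was 9.95% in the quartile of cells with fewest reads and 26.1% in the quartile with most.

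**Figure D1:**
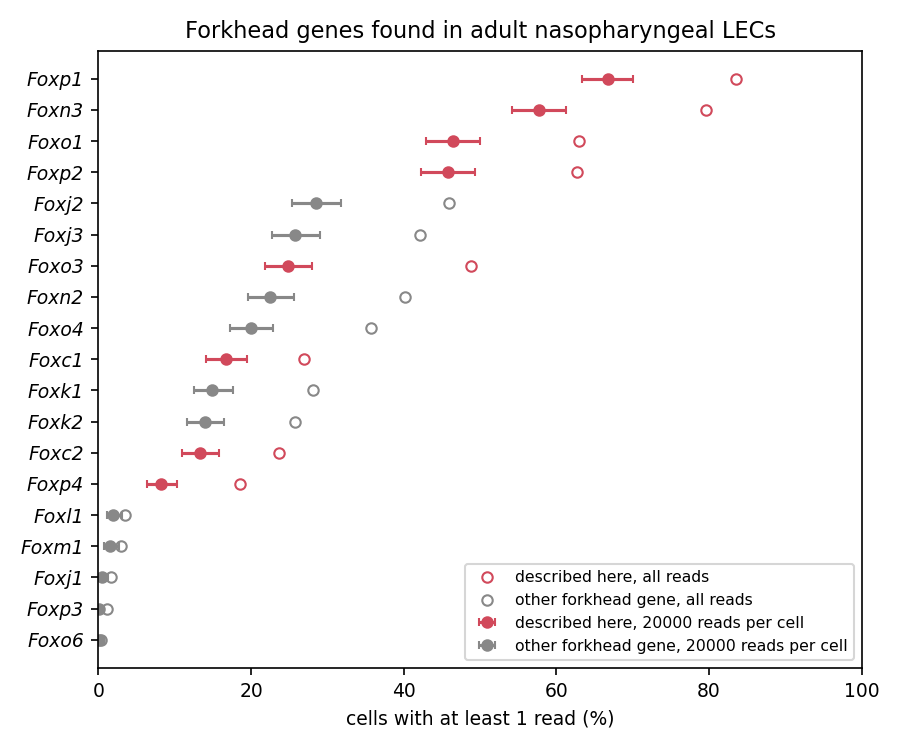
Share of adult LECs with at least 1 read of each forkhead gene with reads (x axis, percent of cells). Filled points are the thinned cells at 20000 reads each with exact 95% intervals, open points are all cells with all reads, and the 9 genes described here are in red (*Foxf1*, at 0, is left out). *Foxp1* leads at 66.8%, and *Foxc1*, *Foxc2* and *Foxp4* lie at 16.7% and below.

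Full-length libraries give longer transcripts more reads, so levels were compared between genes only per kilobase of annotated exon, taken over all transcripts of a gene. On that scale *Foxo1* was highest, at 0.115 reads per 10000 per kb, ahead of *Foxp1* at 0.102 and *Foxn3* at 0.0957. *Foxc2*, a short gene of 1 exon, moved up to 0.0696 and lay above *Foxp2* at 0.0569, *Foxo3* at 0.0444, *Foxc1* at 0.0374 and *Foxp4* at 0.0194. The share of cells with *Foxc2* thus put it near the bottom of the order, whereas its level per length lay in the middle. The lengths used were 16.3 kb for *Foxp2*, 13.8 kb for *Foxp1*, 8.67 kb for *Foxo1* and 2.73 kb for *Foxc2*. A length summed over many transcripts can exceed that of the transcripts present and so lower the value per kb. How far the order depends on this was not tested.

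*Foxf1*, a factor of hedgehog-responsive mesenchyme and of lung endothelium, was listed at 0 in every cell. Its row belongs to a block, 5.79% of the genes listed, that follows the alphabetical run of the other 21827 genes, and every gene of the block was at 0 in every adult cell, whereas no gene before the block was. *Foxf2*, *Foxq1* and the immune marker *Ptprc* lie in the same block. The authors removed genes found in fewer than 3 cells, and 1.70% of the genes in the run before the block were found in only 1 or 2 adult cells. A 0 in the block was therefore not read as absence of expression, and no upper limit was drawn from it. Of the 5 hedgehog genes in the matrix, *Ptch1*, the receptor, was found in 34.1% of thinned cells and *Smo*, the transducer, in 12.3%, while *Gli1*, *Gli2* and *Ihh* were found in under 1% each.

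In GRCm38, the genome build of the files, *Foxp2* spans chr6:14901349-15441977 and *Foxp1* chr6:98925338-99522721. *Foxc1* (chr13:31806633-31812476) and *Foxc2* (chr8:121116171-121118895) are each a single exon. *Foxo1* lies at chr3:52268336-52353221, *Foxo3* at chr10:42181841-42276755, *Foxn3* at chr12:99190078-99563582, *Foxp4* at chr17:47867133-47924645 and *Foxf1* at chr8:121084386-121088144. Exons of *Foxo1* overlap *Gm20402* on the other strand over 7.78% of their bases, and exons of *Foxp1* overlap 2 predicted genes on the same strand over 3.16%, so their counts may include or lose reads there.

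Close relatives also share coding sequence, which matters because the authors' handling of reads with several matches is not stated. The longest identical coding stretch was 53 bases between *Foxc1* and *Foxc2*, where 88 of a 90-base window were identical, 38 bases between *Foxo1* and *Foxo3*, 35 between *Foxp1* and *Foxp2* and 21 between *Foxp1* and *Foxp4*. Whether reads of one gene were counted for another was not tested. The *Foxo1* and *Foxo3* window, in the exons that encode the forkhead domain, is given as an example of shared sequence. It runs 5′ to 3′ across an intron, from chr3:52269346-52345051 on the plus strand for *Foxo1* and chr10:42197889-42274892 on the minus strand for *Foxo3*, and capitals mark the 10 bases of 90 at which the genes differ.
Foxo1: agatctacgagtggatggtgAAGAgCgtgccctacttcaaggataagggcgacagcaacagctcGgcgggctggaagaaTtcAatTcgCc
Foxo3: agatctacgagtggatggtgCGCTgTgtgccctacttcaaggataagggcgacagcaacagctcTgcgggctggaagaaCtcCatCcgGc
Both windows hold the same 38 bases in lower case after the first differences. The rest of each transcript separates the genes, and the share of their reads that falls in such stretches was not measured.

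The next comparison was between kinds of LEC. The cells were grouped into 5 clusters after the study's clustering steps, with all forkhead genes kept out of the clustering, so none of the genes described helped to form a cluster. The only forkhead gene among the variable genes was *Foxm1*, which is not one of those described, so this step removed none of them. Cluster 1 (34.1% of cells) was led by *Tgfbi*, *Slco2b1* and *8430408G22Rik*, and cluster 2 (31.1%) by *Igfbp5*, *Clca3a1* and *Apoe*. In cluster 2, 3 of 7 valve markers were raised (*Gja4*, *Gata2* and *Clu*), which is as many as a class name asked for, and it is called by its number. Cluster 3 (24.1%), led by *Gm525*, *Aqp1* and *Stab2*, had 5 of 6 markers of Ptx3+ capillary LECs raised and is called Ptx3+ capillary-like. In cluster 4 (48 cells), which *Cyp4b1*, *Fndc1* and *Ucp2* led, 5 of 5 markers of Ptx3- capillary LECs were raised, and it is called Ptx3- capillary-like. In cluster 5 (42 cells), which *Gdf15*, *Plat* and *Gsn* led, 4 of 7 valve markers were raised, among them *Cldn11*, and it is called valve-like. Cluster 2 met the same rule, so values in cluster 5 do not stand for all valve-like cells. A gene was called at a ratio of at least 1.5 between its mean level in a cluster and in all other cells, on the scale of reads per 10000 plus a pseudocount of 0.1, over 10344 genes with a mean level of at least 0.05.

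In cluster 2, *Foxp2*, *Foxc1* and *Foxc2* were called higher, 3 of 8 genes, against a background of 3.50% of all genes tested. None of these 3 was past the ratio with a pseudocount of 1 (log2 ratios 0.49, 0.28 and 0.20). *Foxp2*, *Foxc1* and *Foxc2* were called lower in the Ptx3+ capillary-like cluster 3, against a background of 6.23%, and with a pseudocount of 1 the ratio of *Foxp2* (-0.62) stayed past the call there while those of *Foxc1* (-0.17) and *Foxc2* (-0.20) did not. The calls in clusters 2 and 3 are tied, because each cluster is part of the cells with which the other was compared. With cluster 3 left out of those cells, the ratios in cluster 2 were 0.59 for *Foxp2*, 0.92 for *Foxc1* and 0.56 for *Foxc2*, which was below the call. With cluster 2 left out, those in cluster 3 were -1.09 for *Foxp2*, -0.68 for *Foxc2* and -0.27 for *Foxc1*, which was below the call. The median log2 ratio of the 8 genes was 0.33 in cluster 2 and -0.36 in cluster 3, and the medians over all genes tested were -0.02 and 5.68e-05. In cluster 4, *Foxp2* and *Foxp4* were called lower, 2 of 8, against a background of 14.4%, and none higher (background 8.88%). None of the 8 was called in cluster 1 (background 1.14% higher and 2.43% lower) or in the valve-like cluster 5 (7.86% and 18.9%).

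*Foxp2* varied most between the clusters. At 20000 reads it was found in 61.4% of cluster 2 (55–67.5%), 57.5% of cluster 5 (40.9–73%, n = 40), 50% of cluster 1 (43.9–56.1%), 23.6% of cluster 3 (17.7–30.2%) and 16.7% of cluster 4 (6.97–31.4%, n = 42). The intervals of clusters 2, 5 and 1 overlapped, as did those of the capillary-like clusters 3 and 4, and both capillary-like clusters lay below the other clusters.

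The level of *Foxp2* followed the same order except between clusters 1 and 5. It was 1.40 reads per 10000 in cluster 2 and 0.715 in all other cells, a log2 ratio of 0.88. In cluster 3 it was 0.370 against 1.11 elsewhere (log2 ratio -1.36), and in cluster 4 it was 0.202 against 0.974 (log2 ratio -1.83). On the natural log scale the spread within a cluster was wide, with 0.660 ± 0.615 (SD over its cells) in cluster 2 and 0.208 ± 0.393 in cluster 3, so single cells of the clusters overlapped. The study itself used *Foxp2* with *Lyve1* to name a cluster of precollecting LECs, a class without a marker list here. In cluster 2 *Lyve1* was low, at 2.34 reads per 10000 (log2 ratio -2.71), and in cluster 1 it was at 15.2 (0.62). No cluster was matched to the precollecting class.

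*Foxc1* was found in 26% of cluster 2 (20.6–32%), 16.7% of cluster 4 (6.97–31.4%), 15% of cluster 5 (5.71–29.8%), 14.7% of cluster 1 (10.7–19.5%) and 7.85% of cluster 3 (4.46–12.6%). Cluster 2 lay above clusters 1 and 3 beyond the intervals, and the small clusters 4 and 5 could not be set apart from any other. Its level was 0.387 reads per 10000 in cluster 2 against 0.143 in all other cells, a log2 ratio of 1.004, and 0.114 in cluster 3 against 0.252, a log2 ratio of -0.72. The ratio in cluster 3 stayed past the call in 4 of 8 other clusterings (-0.71 to -0.17). The share with *Foxc1* also went with the score of genes induced by tissue dissociation, from 10.6% in the lowest quartile of cells (6.69–15.8%) to 21.3% in the highest (15.8–27.7%), and the part of dissociation in the cluster values was not tested.

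*Foxc2*, the valve and collecting vessel factor, was found in 19.9% of cluster 2 (15.1–25.5%), 12.9% of cluster 1 (9.13–17.4%), 12.5% of the valve-like cluster 5 (4.19–26.8%), 11.9% of cluster 4 (3.98–25.6%) and 5.76% of cluster 3 (2.91–10.1%). Clusters 2 and 3 differed beyond their intervals, whereas clusters next to each other in this order did not. Its level was 0.304 reads per 10000 in cluster 2 against 0.138 elsewhere (log2 ratio 0.76), 0.0713 in cluster 3 against 0.227 (log2 ratio -0.93) and 0.104 in cluster 5 against 0.194 (log2 ratio -0.53, not called). The ratio of *Foxc2* in cluster 2 was below 1.5 when no variables were regressed out (log2 ratio 0.55) and at the default resolution of 0.8 (0.50), and that in cluster 3 when no variables were regressed out (-0.55).

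The other members varied less between clusters. *Foxp1* was found in 58.6% of cluster 3 (51.3–65.7%) and 73.2% of cluster 2 (67.2–78.6%), intervals that did not overlap, yet its level was 1.26 and 1.58 reads per 10000 there and its log2 ratios against all other cells were -0.19 and 0.22. *Foxo1* behaved alike, with 38.2% of cluster 3 (31.3–45.5%), 53.3% of cluster 2 (46.8–59.6%) and log2 ratios of -0.51 and 0.44. *Foxo3* was found in 30.9% of cluster 1 (25.4–36.7%) and 18.3% of cluster 3 (13.1–24.6%), but its levels of 0.351 and 0.338 reads per 10000 were close, and no order was read from the shares. *Foxn3* was found in between 55% and 59.5% of clusters 1 to 4 and in 75% of cluster 5 (58.8–87.3%), with overlapping intervals. The call of *Foxp4* as lower in cluster 4 rested on a level of 0.00846 against 0.101 reads per 10000, was lost with a pseudocount of 1 (log2 ratio -0.13), and its shares of 4.76% (0.582–16.2%) in cluster 4 and 8.82% (5.74–12.8%) in cluster 1 overlapped.

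**Figure D2:**
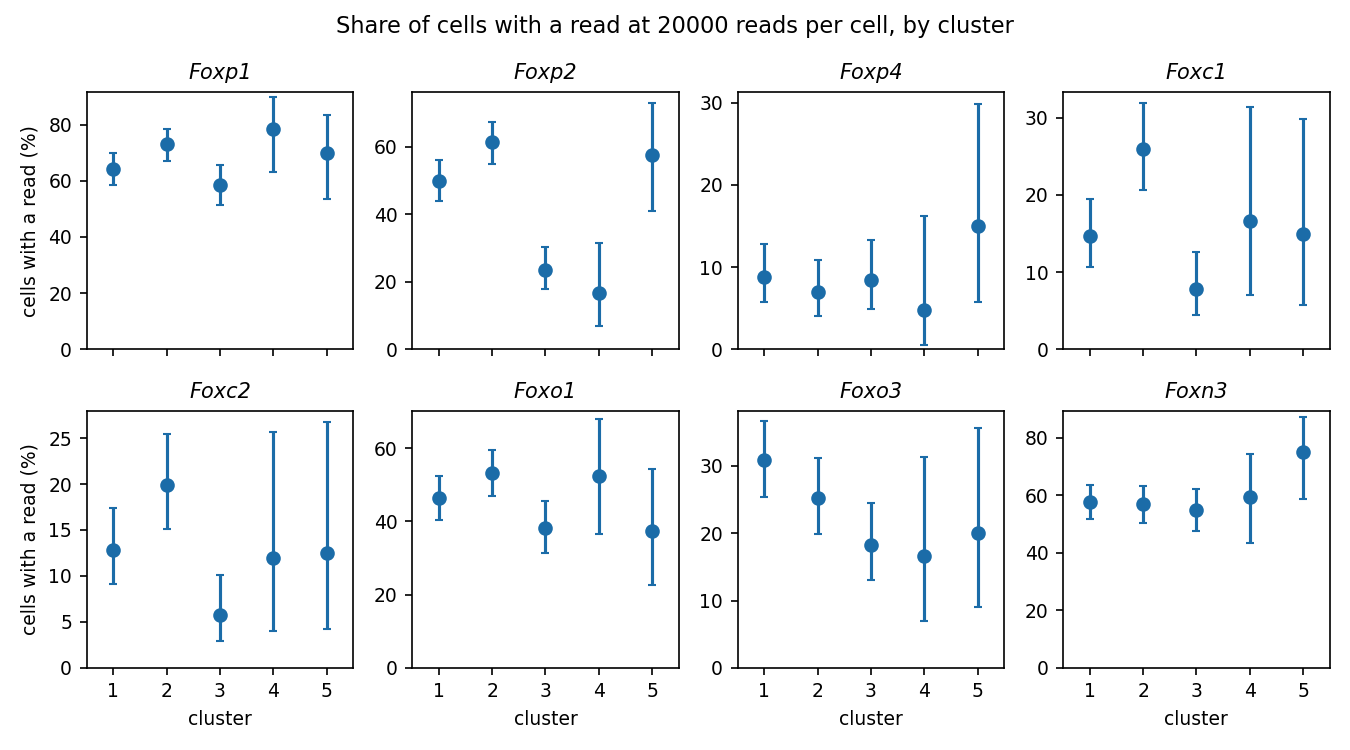
Share of cells with at least 1 read at 20000 reads per cell (y axis, percent, a scale for each gene) in clusters 1 to 5 (x axis) for the 8 genes with reads. Points are shares and bars exact 95% intervals. *Foxp2*, *Foxc1* and *Foxc2* are high in cluster 2 (61.4%, 26% and 19.9%) and low in cluster 3 (23.6%, 7.85% and 5.76%), and *Foxp4* stays between 4.76% and 15%.

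A view that needs no clustering ranked the thinned cells by a single gene and cut them into quartiles, which were of the same size to within 1 cell. Because *Igfbp5* and *Stab2* are leading genes of clusters 2 and 3, quartiles by them are not independent of the clusters. Many cells had no read of the ranking gene, so for *Lyve1* and *Igfbp5* the lowest quartile and for *Stab2* the lowest 2 quartiles consisted of such cells, placed at random. *Lyve1* was at 14.8 and 37.9 reads per 10000 in the capillary-like clusters 3 and 4, but also at 15.2 in cluster 1. Its quartiles are therefore no scale of capillary identity. *Foxp2* was found in 57.1% of the lowest *Lyve1* quartile (49.9–64.1%), 55.6% of the second, 39.4% of the third and 31% of the highest (24.6–37.9%). Over *Igfbp5*, the leading gene of cluster 2, the order was turned, with 37.9%, 35.9%, 49% and 60.4%. Over *Stab2*, a scavenger receptor of the Ptx3+ capillary-like cells, *Foxp2* was found in 55.6% of the lowest quartile (48.3–62.6%), 51.5% of the second (44.3–58.7%) and 28.9% of the highest (22.7–35.8%).

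*Foxc1* and *Foxc2* went the same way over *Stab2*. *Foxc1* was found in 23.2% of the lowest quartile (17.5–29.7%), 18.7% of the second (13.5–24.8%) and 10.2% of the highest (6.31–15.2%). *Foxc2* was found in 19.7% (14.4–25.9%), 14.6% (10.03–20.4%) and 5.08% (2.46–9.14%). The lowest 2 quartiles both consist of cells without *Stab2*, and for *Foxc1* the interval of the second overlapped that of the highest. Over *Lyve1* the shares of *Foxc1* were 21.2%, 17.7%, 18.7% and 9.14%, and those of *Foxc2* were 15.2%, 16.2%, 9.09% and 12.7%, with overlapping intervals for *Foxc2*. Median total reads before thinning were 481720, 372715, 200509 and 637353 from the lowest *Lyve1* quartile to the highest, and the part of depth in these shares was not tested.

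**Figure D3:**
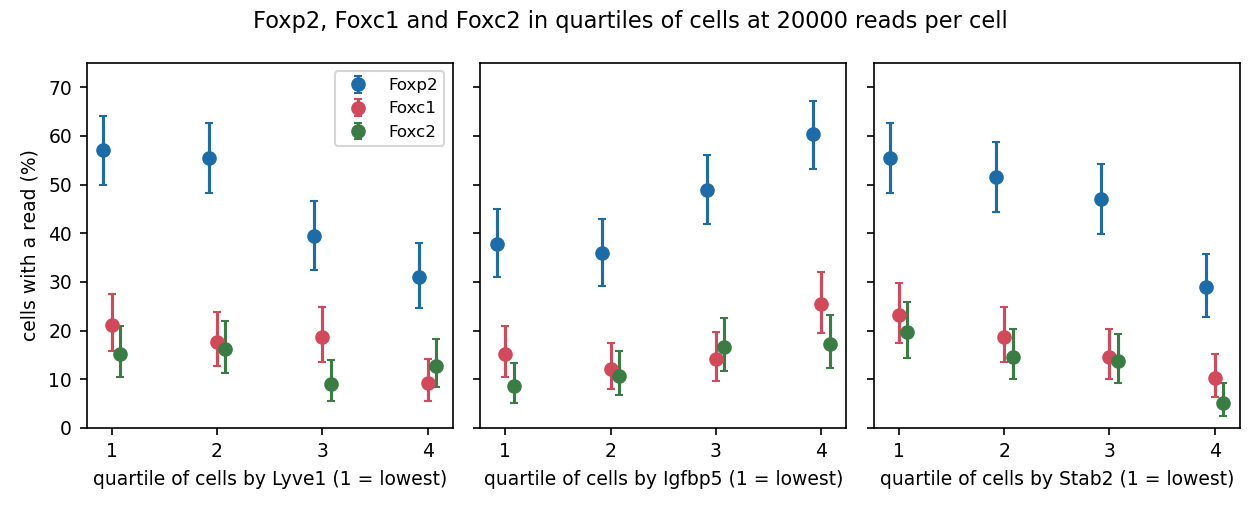
Share of cells with a read of *Foxp2* (blue), *Foxc1* (red) and *Foxc2* (green) at 20000 reads per cell (y axis, percent) in quartiles of the thinned cells ranked by *Lyve1*, *Igfbp5* or *Stab2* (x axis, 1 the lowest). Bars are exact 95% intervals. *Foxp2* is at 57.1% in the lowest and 31% in the highest *Lyve1* quartile, and at 37.9% and 60.4% for *Igfbp5*.

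The cells were also divided by reads of the valve markers *Cldn11* and *Gja4*. *Foxc1* was found in 22.8% of cells with *Cldn11* (17.4–29%), which were 27.7% of the thinned cells, and in 14.3% of cells without (11.6–17.5%), intervals that overlapped, while *Foxc2* was found in 14.6% and 12.8%, with intervals of 10.2–19.997% and 10.1–15.8%. With the connexin *Gja4*, *Foxc2* was found in 18.1% of cells (13.9–22.9%), in a group that was 37.8% of the thinned cells, and in 10.4% of cells without it (7.82–13.4%), and *Foxc1* in 21.7% (17.2–26.9%) and 13.6% (10.7–16.97%). *Foxp2* was found in 57.1% of cells with *Cldn11* and 41.4% without, and in 53.5% with *Gja4* and 41.1% without. Whether *Foxc1* and *Foxc2* differ in their relation to *Cldn11* was not tested.

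At the default resolution the cells formed 7 clusters, and a group of 25 cells, all from cluster 2, split off. It was led by *Clu*, *Adm*, *Slc29a4*, *Nsg1* and *Lypd6* and was valve-like, with 4 of 7 markers raised (*Cldn11*, *Gja4*, *Gata2* and *Clu*). The group of 25 cells was picked for description after its values had been seen, so no gene was called there.

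In these 25 cells *Foxp2* was at 2.91 reads per 10000 against 0.869 in all other cells (log2 ratio 1.64), and it was found in 79.2% of 24 thinned cells (57.8–92.9%). *Foxc2* was at 0.722 against 0.173 (log2 ratio 1.59) and found in 37.5% (18.8–59.4%), the highest share of *Foxc2* in any of the 7 clusters. *Foxc1* was at 0.804 against 0.201 (log2 ratio 1.59) but was found in 25% (9.77–46.7%), no more than the 27% of the *Igfbp5*-led cluster, so its share did not follow its level. *Foxp1* was at 2.64 against 1.37 (log2 ratio 0.90) and *Foxn3* at 0.501 against 1.12 (log2 ratio -1.02).

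The other valve-like cluster (45 cells, led by *Gdf15* and *Plat*) had much *Cldn11*, at 5.50 reads per 10000, and less *Gja4*, at 1.33, while the 25 cells had 4.30 and 8.82. *Foxc2* was found in 11.6% of its 43 thinned cells (3.89–25.1%), an interval that overlapped that of the 25 cells, and its level was 0.0972. *Foxp2* was found in 58.1% (42.1–73%) at a level of 0.683. A cluster of 42 cells led by the interferon-stimulated genes *Usp18*, *Isg15* and *Ifit1* had *Foxn3* in 42.9% (27.7–59%). Its share with *Foxc2* was 4.76% (0.582–16.2%) in thinned cells and 28.6% with all reads, and no order was read from it.

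**Figure D4:**
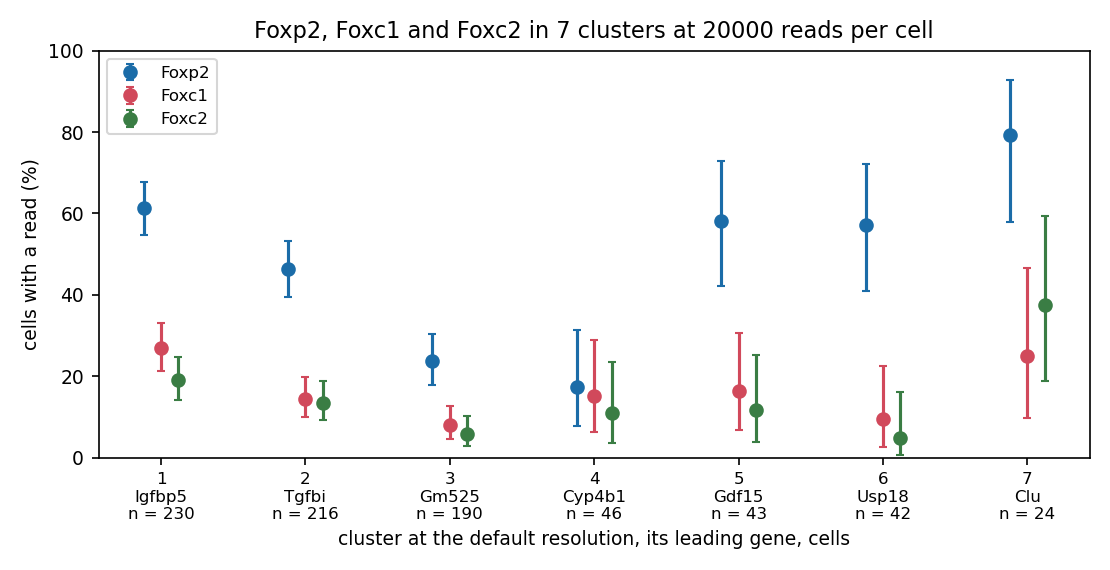
Share of cells with a read of *Foxp2* (blue), *Foxc1* (red) and *Foxc2* (green) at 20000 reads per cell (y axis, percent) in the 7 clusters at the default resolution (x axis, with the leading gene and the number of thinned cells). Bars are exact 95% intervals. The *Clu*-led cluster of 24 thinned cells has *Foxp2* in 79.2% and *Foxc2* in 37.5%, with wide intervals.

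Genes that act with FOXC2 in lymphatic valves were followed in the same 5 clusters, from a list of 19 that were all tested. In cluster 2, where *Foxp2*, *Foxc1* and *Foxc2* were high, 5 were called higher and 1 lower, with a median log2 ratio of -0.05 and backgrounds of 3.50% and 4.51%. The higher genes were the transcription factor *Gata2* (log2 ratio 0.82), the connexin *Gja4* (0.90), the angiopoietin receptor *Tek* (1.15), the arterial and valve ephrin *Efnb2* (0.87) and the BMP receptor *Acvrl1* (0.72). The lower gene was the TEK ligand *Angpt2* (-2.01). In cluster 3, 7 were called lower (*Gata2*, *Fn1*, *Gja4*, *Cldn11*, *Tek*, *Efnb2* and *Acvrl1*) and 1 higher (*Angpt2*), with a median of -0.06 and backgrounds of 6.23% and 5.23%. All of the 5 genes higher in cluster 2 were among the 7 lower in cluster 3, but these calls are tied in the way given above. With cluster 3 left out of the cells compared, 3 of the 5 stayed past the ratio (*Gata2*, *Tek* and *Acvrl1*), and with cluster 2 left out, 4 of the 7 did (*Fn1*, *Gja4*, *Cldn11* and *Efnb2*).

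In the valve-like cluster 5, *Prox1* (0.60), *Gata2* (0.65), *Nfatc1* (0.84), *Fn1* (1.58) and *Cldn11* (2.68) were called higher and *Klf2*, *Efnb2*, *Flt4* and *Acvrl1* lower, 5 and 4 of 19 against backgrounds of 7.86% and 18.9%, with a median of 0.50 against -0.10 over all genes tested, while none of the forkhead genes was called. Several of these genes, among them *Gja4*, *Gata2* and *Cldn11*, were also on the marker lists and took part in forming the clusters, so their differences describe the clusters and are no independent result.

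**Figure D5:**
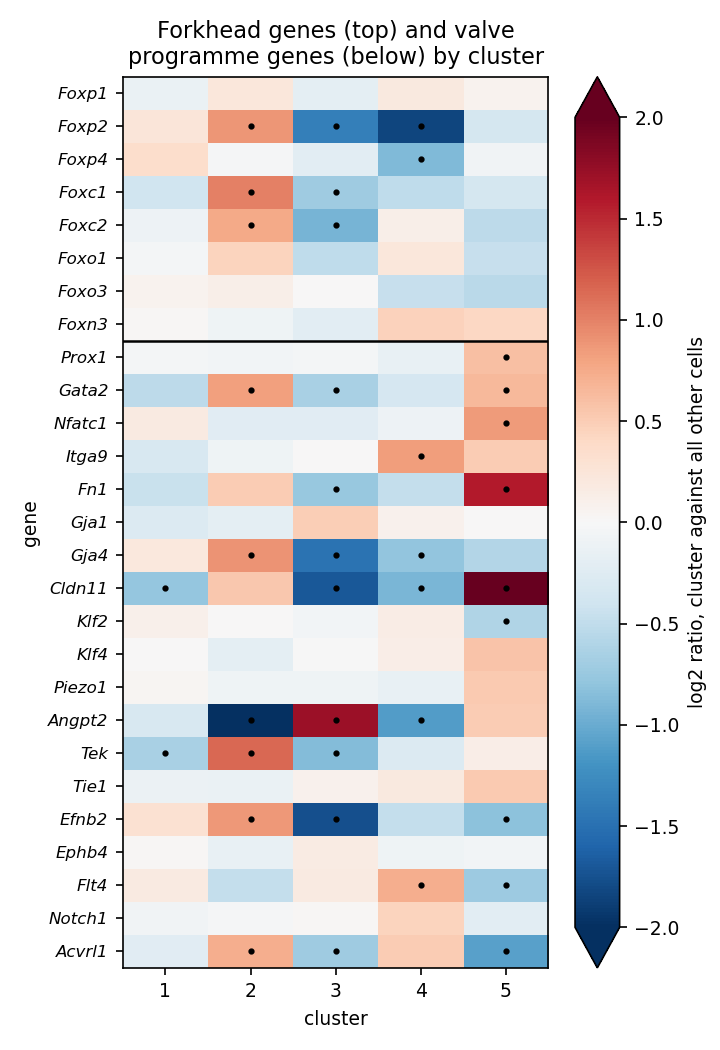
Log2 ratio of the mean level in a cluster against all other cells (colour, reads per 10000 plus 0.1, saturated at 2 in either direction) for the 8 forkhead genes with reads (top) and 19 valve programme genes (below) in clusters 1 to 5. Dots mark ratios of at least 1.5. Cluster 2 shows *Foxp2* (0.88), *Foxc1* (1.004) and *Foxc2* (0.76) beside *Gja4*, *Tek* and *Efnb2*, and in cluster 3 these genes are below 0.

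Regulators and targets of the FOXO class were followed in the same clusters. Of 9 regulators tested, which include the kinases of the PI3K and AKT route, none was called in clusters 1, 2, 3 or 5, and in cluster 4 *Pdpk1* was called higher and *Igf1r* lower, against backgrounds of 8.88% and 14.4%. Their median log2 ratio lay between -0.13 and 0.13 in the 5 clusters. Backgrounds in clusters 1, 2, 3 and 5 were 1.14%, 3.50%, 5.23% and 7.86% higher and 2.43%, 4.51%, 6.23% and 18.9% lower. Of 13 FOXO target genes tested, the cell cycle inhibitor *Cdkn1a* was called higher in cluster 2 (log2 ratio 0.63, background 3.50%). *Pik3ip1*, an inhibitor of PI3K, was called higher in cluster 3 (1.14, background 5.23%) and lower in cluster 1 (-0.82, background 2.43%). *Bcl2l11* and *Sesn1* were called lower in cluster 4 (background 14.4%) and *Txnip* lower in cluster 5 (18.9%), and the median lay between -0.11 and 0.10. Of 12 genes of FOXP corepressor complexes, none was called outside cluster 4, where *Gatad2a* was called higher and *Ctbp2* lower against the same backgrounds of 8.88% and 14.4%, and the median lay between -0.21 and 0.05. In lists this short, single calls and the lack of calls were not read as a result against these backgrounds.

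A thinned cell had a median of 3 of the 8 genes, and the number ranged from 0 to 7. None was found in 25 cells (3.16%). *Foxp1* and *Foxp2*, which can pair as proteins, were found together in 32.6% of cells. The share with *Foxp2* was 48.9% in cells with *Foxp1* (44.5–53.2%) and 39.5% in cells without (33.6–45.7%), intervals that overlapped. No link between these 2 genes was read from the joint share. *Foxp2* was found in 61% of cells with *Foxc2* (50.9–70.3%) and in 43.4% of cells without (39.7–47.2%), intervals that did not overlap. *Foxc1* and *Foxc2* were found together in 2.28% of cells, and *Foxc2* was found in 13.6% of cells with *Foxc1* (8.29–20.7%) and 13.2% without (10.7–16%). The shares of *Foxc2* in cells with and without *Foxc1* thus lay close together, although both genes were high in cluster 2.

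Likeness across cells was described by Spearman's correlation over the thinned cells with each of 7713 genes found in at least 10% of them. The points are cells of 1 pooled sample. *Foxp2* was most like *Clca3a1* (0.37), *Pkhd1l1* (0.28), *Tspan7* (0.27), *Nudt4* (0.27) and *Parm1* (0.26), against a median over genes of 0.00512, and *Clca3a1*, *Tspan7*, *Pkhd1l1* and *Parm1* were among the 10 leading genes of cluster 2. Within clusters the correlation with *Clca3a1* was 0.25 in cluster 1, 0.14 in cluster 2 and 0.22 in cluster 3, and in the small clusters it was 0.05 in cluster 4 (42 thinned cells) and 0.50 in cluster 5 (40 thinned cells). The gene least like *Foxp2* was *Aqp1* (-0.33), a leading gene of cluster 3.

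*Foxp4*, found in under 10% of thinned cells, was not compared in this way. For the other 6 genes compared, the highest correlations were weak, between 0.13 and 0.18, and were not read as shared patterns. *Foxc1* was closest to *Efnb2* (0.18), *Sdc4* (0.18), *Ptpn14* (0.16), *Clca3a1* (0.16) and *Pkhd1l1* (0.15), and *Foxc2* to *Pkhd1l1* (0.17), *Efnb2* (0.14), *Rpl21-ps8* (0.13), *Clca3a1* (0.13) and *Nsg1* (0.13). *Foxp1* was closest to *Arrdc3* (0.17), *Foxo1* to *Ahnak* (0.15), *Foxo3* to *Mpp5* (0.15) and *Foxn3* to *Rftn2* (0.13). Among the 7 forkhead genes compared with each other the highest correlation was that of *Foxp2* with *Foxc2*, at 0.13, and that of *Foxc1* with *Foxc2* was 0.01.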

How the data were processed

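The 9 genes and the gene lists were chosen with earlier results of these data known. Per the labels and methods, STAR (to mm10), featureCounts of Subread and Seurat 4.1.0 were the aligner, counter and normaliser of the authors, who kept genes found in 3 cells or more and cells that had at least 2000 genes and at most 10% mitochondrial reads. Strand and multi-mapping settings are not given in the sources used here. The deposited values are natural log values of reads scaled to 10000 a cell, with 1 added. The methods call them log2, yet a base of e was needed for the reads of each cell to add up to 10000. From them, whole reads were recovered (100% of values above 0 within 0.01 reads). The highest mitochondrial share was 9.12%.

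Reads were clustered with Seurat 5.3.0 in R 4.3.3, with 2000 vst genes, 15 principal components, 4 regressed variables (total reads, mitochondrial share, dissociation and ribosomal scores) and the Louvain algorithm at the lowest resolution to give 5 clusters, raised by 0.05 at a time. The 842 cells from 1536 wells fell into clusters 1 to 5 of 287, 262, 203, 48 and 42 cells. Thinning left 791 cells, of which 272, 246, 191, 42 and 40 were in these clusters, 219 had *Cldn11*, 299 had *Gja4*, 132 had *Foxc1* and 105 had *Foxc2*. The study's dissociation genes are not listed, and 137 genes in the matrix were used. No doublet caller was run. Leading genes were found in at least 30% of a cluster and ranked by log2 ratio with a pseudocount of 1. A class name needed at least 3 raised markers. Cluster 2, which had 3 valve markers raised and so met the rule, was left unnamed. Genes named are the 9 members, other forkhead genes in at least 10% of thinned cells, the 5 genes most like each member, the fixed lists and the 3 leading genes of each cluster. In the group of 25 cells, 5 leading genes are named. A gene of the valve list is not reported here. Coordinates and exon lengths come from GENCODE M21 on GRCm38 (96.1% of symbols matched), and sequences from its transcripts. With 1 sample, no test was run, and depth set the precision of shares. The steps were run on simulated data in which the raised genes had higher levels than *Foxc1*, *Foxc2* and *Foxp4* and larger ratios than the call. Calls near the ratio and calls of these sparse genes were therefore not tested. Python 3.11.15, NumPy 2.4.6, SciPy 1.17.1, pandas 2.3.3 and matplotlib 3.10.9 were used. Alternatives changed depth, pseudocount, filters, clustering settings and the measure of likeness.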

Additional observations from a re-analysis of the deposited data

How the results depend on the processing

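With 1 pooled sample no replicate could be left out, and spread between mice was not measured. No paired analysis was possible because the labels name 1 group and no result came from a test. Depth limited the sparse genes: shares moved outside their intervals with depth and with the number of reads asked for, while in cells with at least 3000 genes they stayed inside. For *Foxp1*, *Foxp2*, *Foxp4*, *Foxc1*, *Foxc2*, *Foxo1*, *Foxo3* and *Foxn3* in turn, the shares were 76.9%, 54.5%, 11.6%, 23%, 19.8%, 53.8%, 35.8% and 70.5% at 50000 reads per cell (82.2% of cells), 83.5%, 62.7%, 18.5%, 27%, 23.6%, 62.9%, 48.8% and 79.6% without thinning, and 52%, 32.6%, 4.55%, 10.7%, 9.10%, 35.3%, 13.8% and 41% with at least 2 reads asked for.

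Across the 8 clustering alternatives that gave clusters, *Foxp2* (log2 ratio 0.64 to 1.01) and *Foxc1* (0.70 to 1.0) stayed past a ratio of 1.5 in cluster 2 or the cluster sharing most cells with it in 8 of 8, and *Foxc2* in 6 of 8 (0.55 with no regressed variables, 0.50 at the default resolution). No setting with 3000 variable genes gave 5 clusters. A pseudocount of 1, which shrinks ratios of low genes by its construction, took all of them below the ratio (0.49 for *Foxp2*, 0.28 for *Foxc1* and 0.20 for *Foxc2*), as it did *Foxc1* (-0.17) and *Foxc2* (-0.20) in cluster 3 and *Foxp4* in cluster 4 (-0.13). In cluster 3, *Foxp2* stayed past the ratio in 8 of 8 clusterings, *Foxc2* in 7 of 8 (-0.55 with no regressed variables) and *Foxc1* in 4 of 8 (-0.53 with fewer variable genes, -0.54 with forkhead genes kept in the clustering, -0.17 with no regressed variables and -0.55 in cells with at least 3000 genes). Leaving clusters 2 and 3 out of each other's comparison, chosen after seeing the data, took *Foxc2* in cluster 2 (0.56) and *Foxc1* in cluster 3 (-0.27) below it. With forkhead genes kept in the clustering, *Foxm1* was the only forkhead gene among the variable genes. None of the genes described here entered that clustering, so it cannot show whether they shape the clusters. *Foxp4* in cluster 1 passed the ratio with 20 principal components (0.60) and in cells with at least 3000 genes (0.59), and *Foxo3* in cluster 2 turned from 0.12 to -0.0316 in thinned cells. The log2 ratio of *Foxc2* between cells with and without *Gja4* was 0.51 without thinning and 0.53 at 50000 reads, no longer past 1.5, and that between cells with and without *Cldn11* was 0.16 without thinning. Without thinning, the correlation with the gene first in the thinned order became 0.34 for *Foxp1* with *Arrdc3*, 0.53 for *Foxp2* with *Clca3a1*, 0.29 for *Foxc1* with *Efnb2*, 0.40 for *Foxo1* with *Ahnak* and 0.30 for *Foxn3* with *Rftn2*, and other genes came first for *Foxp1*, *Foxc1* and *Foxn3*. The cause of these changes was not tested. Of the 5 genes most like *Foxp2*, 3 to 5 were kept under each alternative, and of those most like *Foxo3* and *Foxn3*, none were kept under at least 1 alternative.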

Other observations

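Among the other forkhead genes, *Foxj2* (28.4% of thinned cells), *Foxj3* (25.8%), *Foxn2* (22.5%), *Foxo4* (19.97%), *Foxk1* (14.9%) and *Foxk2* (13.9%) were found in at least 10% of cells. None of these 6 was past a ratio of 1.5 in clusters 1, 2, 3 or 5, where 1.14% to 7.86% of all genes tested were higher and 2.43% to 18.9% lower. In the Ptx3- capillary-like cluster 4, *Foxn2* was at 0.539 reads per 10000 against 0.244 in all other cells (log2 ratio 0.90) and *Foxo4* at 0.156 against 0.294 (log2 ratio -0.62). That is 1 of 6 in each direction, against backgrounds of 8.88% higher and 14.4% lower, and neither was read as a result. The share of cells with *Foxn2* in cluster 4, 35.7% (21.6–52%), overlapped that of cluster 1, 19.1% (14.6–24.3%). *Foxl1*, the neighbour of *Foxc2* at a distance of 9044 bases, was found in 1.90% of thinned cells (1.07–3.11%). *Foxm1*, a factor of dividing cells, was found in 1.52% (0.786–2.63%).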
